A study of Mus musculus with 8 samples.

Results

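The genes described here are Siglech and 5 other mouse Siglec genes, Siglece, Siglec1, Siglecf, Cd33 and Cd22, read through the open chromatin around them. Each gene was described by all peaks of an ATAC-seq table whose nearest start site, as the authors' annotation gives it, belongs to it, 71 of 104981 peaks in all. Siglech holds 29 of them, Cd33 13, Siglecf 11, Siglec1 8, Siglece 7 and Cd22 3. ATAC-seq uses a transposase that inserts adapters where chromatin is open, so more tags in a peak mean more accessible DNA. The libraries came from cortical microglia, purified on a Percoll gradient and by cell sorting, of mice at postnatal day 30. Interleukin-33 (IL-33), an alarmin cytokine, or vehicle had been injected into a cerebral ventricle on one side, and the tissue was taken 4 hours later. Each group had 4 mice, 2 of them female, and strain and genotype are not given in the sources used here. The table names the treatment of each library but not the mouse, so sex could not be entered in a test.

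Siglecs are lectins of the immunoglobulin superfamily that bind sialic acid on glycoproteins and glycolipids. Most carry inhibitory cytoplasmic motifs that recruit the tyrosine phosphatases SHP-1 and SHP-2, and so dampen activation of the cell that bears them. Siglec-H, the product of Siglech, lacks such a motif and pairs with the adaptor DAP12 instead. In the mouse brain it is a widely used microglia marker, and outside the brain it marks plasmacytoid dendritic cells. Siglec-E and CD33 are inhibitory receptors of myeloid cells. Sialoadhesin, the product of Siglec1, is a macrophage adhesion receptor, Siglec-F is best known from eosinophils and alveolar macrophages, and CD22 is an inhibitory co-receptor of B cells that microglia can also express.

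Siglech lies on the plus strand of chromosome 7 (chr7:55768154-55779448 on mm10). Siglecf (chr7:43351341-43359475), Cd33 (chr7:43527399-43537424) and Siglece (chr7:43648882-43672044) lie close together elsewhere on the same chromosome. Cd22 (chr7:30865404-30880342) lies on that chromosome too, and Siglec1 (chr2:131067801-131086778) is on chromosome 2. The bases just before the start sites of Siglech, Siglecf and Cd33 are shown because each overlaps a promoter peak measured here and each holds the core letters of a site for PU.1, the myeloid lineage transcription factor. Capitals mark these letters, GGAAGT or, on the other strand, ACTTCC. The sequences are RefSeq's on GRCm38.p6, the assembly behind mm10, read 5′ to 3′ on the strand of the gene, and 5 of the 6 genes had an entry.
Siglech promoter, chr7:55767934-55768153, plus strand: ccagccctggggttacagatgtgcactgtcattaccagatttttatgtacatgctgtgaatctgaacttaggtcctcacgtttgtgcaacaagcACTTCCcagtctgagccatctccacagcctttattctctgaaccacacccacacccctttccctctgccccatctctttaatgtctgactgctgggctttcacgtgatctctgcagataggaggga
Siglecf promoter, chr7:43351091-43351340, plus strand: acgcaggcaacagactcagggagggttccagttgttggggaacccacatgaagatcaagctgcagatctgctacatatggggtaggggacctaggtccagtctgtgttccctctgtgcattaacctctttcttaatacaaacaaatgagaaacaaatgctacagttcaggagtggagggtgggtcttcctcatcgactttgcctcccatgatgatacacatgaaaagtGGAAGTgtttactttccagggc
Cd33 promoter, chr7:43533172-43533421, minus strand: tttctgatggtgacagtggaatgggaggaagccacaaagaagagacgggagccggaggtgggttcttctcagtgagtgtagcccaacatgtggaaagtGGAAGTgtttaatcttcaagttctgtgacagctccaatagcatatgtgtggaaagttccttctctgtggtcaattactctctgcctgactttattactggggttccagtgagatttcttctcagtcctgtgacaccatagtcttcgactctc

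Positions here are counted from the start site of RefSeq's promoter window, which for Siglech is 55768184, the site its peak distances are counted from too. The Siglech stretch shown stops 30 bases before that site, where the RefSeq span of the gene begins. The PU.1 letters start at -156 from the start site in Siglech, at -22 in Siglecf and at -152 in Cd33. The Siglech and Siglecf matches lie inside the promoter peaks of these genes, and the Cd33 match lies outside its peak. On both strands and over the whole RefSeq window, which runs on to 50 bases past the start, 3 of 5 members held GGAAGT, against 23.8% of 32851 windows of this table. TGTGGT, the RUNX letters, were in the same 3 members and in 16.8% of windows. TTGCNNAA, the C/EBP letters, were in Siglech alone of the 5 members and in 10.8% of windows. The core pattern of NF-kB, a loose one, matched in Siglece alone of the 5, though 50.8% of windows hold it. A match of letters is a description and not a bound site. Aligned with each other, the Siglecf and Cd33 windows shared 94 of 134 columns (70.1%), including the PU.1 letters and the bases around them.

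Libraries held 35842688 to 43857673 tags, and values are tags scaled to 10000000 per library, called tags from here on. The share of tags in peaks was 20.8% to 27.9% in vehicle libraries and 14.2% to 31.3% in IL-33 libraries, with IL-33 library 2 the lowest of all. Peaks of all 7 microglia marker genes read here (P2ry12, Tmem119, Sall1, Cx3cr1, Fcrls, Gpr34 and Olfml3) were present, with summed levels of 3471 to 5017 tags under vehicle and 2360 to 4773 under IL-33. In these bulk libraries, fewer cells with an open site and less opening per cell cannot be told apart. Each library came from a mouse of its own, per the labels, and a peak's tie to a gene is by nearest start site only.

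Siglech lost accessibility after IL-33, and it was the only member whose summed tags passed the test. The tags of its 29 peaks summed to 579.2, 635.6, 493.1 and 587.7 in the vehicle libraries and to 345.3, 149.1, 243.8 and 365.4 in the IL-33 libraries. Every IL-33 library lay below every vehicle library, as in 2.52% of all genes, and the lowest was IL-33 library 2. The mean fell from 573.9 ± 59.3 to 275.9 ± 99.9 tags (SD, n = 4 each), 48.1% of the vehicle level. In limma on log2(sum + 5), fitted over all 16386 genes tested, the log2 change was -1.12 (SE 0.28, adjusted p = 0.00498). By the exact permutation test over the 8 libraries the two-sided p was 0.0286, the smallest that 4 against 4 can give. Over all genes tested, 1.23% were lowered and 1.46% raised by this test (15.6% and 11.8% after median-ratio scaling), and the median gene moved by -0.17. Relative to that median, Siglech changed by -0.95. Siglech ranked 77th of 202 lowered genes by the size of its log2 change. Only Khdrbs3 and F630206G17Rik among them had a higher raw sum under vehicle, a value that grows with the number and length of peaks. Without IL-33 library 2 the log2 change was -0.86, still past the threshold. Without vehicle library 1, 2 or 4 or IL-33 library 3, the log2 change was -1.11, -1.07, -1.11 or -1.09 but the adjusted p rose to 0.0517, 0.0643, 0.0513 and 0.0584.

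**Figure D1:**
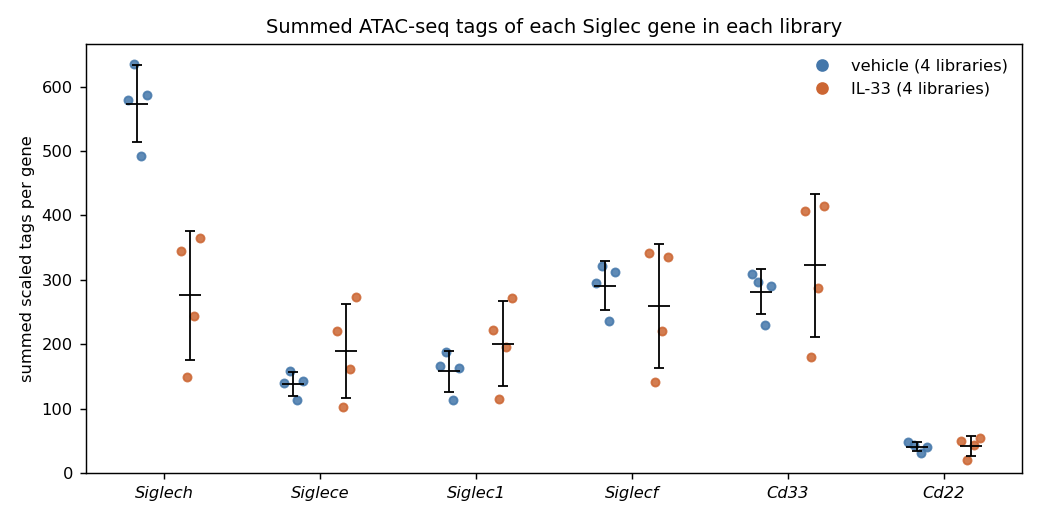
Summed scaled tags of all peaks assigned to each of the 6 Siglec genes (vertical axis, tags per 10000000 in the library). Points are libraries, 4 vehicle in blue and 4 IL-33 in orange, and black marks are means with SD; the groups are apart for Siglech, from 345.3 tags in IL-33 library 1 and 365.4 in library 4 up to 493.1 in the lowest vehicle library, and overlap in the other 5 genes.

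Within each library, Siglech fell relative to every other member, a comparison in which the scaling of a library largely cancels. The log2 ratio of Siglech to Cd33, taken as the difference of log2(sum + 5), was 0.90, 1.09, 1.08 and 1.01 in the vehicle libraries and -0.23, -0.27, -0.24 and -0.18 in the IL-33 libraries. Siglech thus held more tags than Cd33 in each vehicle library and fewer in each IL-33 library, and IL-33 library 2 did not stand apart in this ratio. The mean ratio changed by -1.25 (SE 0.05) against Cd33. It changed by -1.48 (SE 0.05) against Siglece, by -1.42 (SE 0.10) against Siglec1, by -0.88 (SE 0.04) against Siglecf and by -1.09 (SE 0.10) against Cd22. In each of the 5 pairs the groups did not overlap, and the exact permutation p, two-sided and adjusted over the 5 pairs, was 0.0286, the smallest possible. All 5 ratios share the Siglech sum, which alone separates the groups, so they are not 5 independent results. The share of all genes whose ratio to Siglech separates the groups was not computed. Levels between genes can be set side by side only per length of peak. Under vehicle, Siglech held 61.5 ± 6.36 tags per kb of peak, Siglece 65.3 ± 8.85, Siglec1 63.3 ± 12.6, Cd33 66.6 ± 8.29, Siglecf 82.0 ± 10.8 and Cd22 48.2 ± 8.19 (SD, n = 4 each). Under IL-33, Siglech had the lowest mean of the 6, 29.6 tags per kb, next to 49.5 for Cd22, 73.1 for Siglecf, 76.4 for Cd33, 80.7 for Siglec1 and 89.2 for Siglece. Under vehicle the means of Siglech, Siglec1, Siglece and Cd33 differed by less than their SDs.

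**Figure D2:**
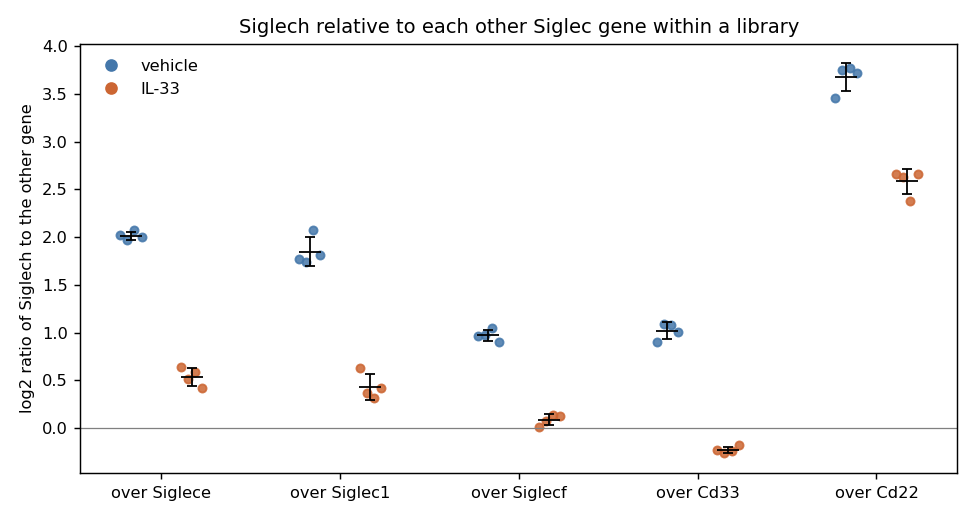
Log2 ratio of the summed tags of Siglech to those of each other Siglec gene within a library (vertical axis). Points are libraries, blue for vehicle and orange for IL-33, and black marks are means with SD (n = 4 each); the groups do not overlap in any pair, and the smallest shift, -0.88, is against Siglecf.

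Peak by peak, 15 of the 24 Siglech peaks tested were lowered (62.5%; limma on log2(tags + 1.155), adjusted over all 94480 peaks), where 4.99% of all peaks tested were. Of these 24, limma raised 0, with 1 at an unadjusted p under 0.05 against 8.53% of all peaks raised. EdgeR (TMM scaling) and DESeq2 each raised 1, where they raised 16.9% and 17.5% of all peaks and lowered 12.2% and 13.1%. The other 5 Siglech peaks were too weak for the test. In 17 of the 24 every IL-33 library lay below every vehicle library, as in 5.89% of all peaks. The median log2 change of the tested Siglech peaks was -1.02, next to -0.14 over all peaks, and the standard error was 0.34 at each peak. Only Ifitm10 and Khdrbs3 had more lowered peaks than Siglech. However, 12 of the 29 Siglech peaks were on the authors' vehicle list only (8.86% of all peaks were). Among them were most of the 15 lowered peaks, those at 4.5, 5.8, 7.2, 8.7, 9.2, 9.5, 10.9 and 12 kb. The IL-33 means of these lowered peaks lay below 4.3 tags, the lowest mean tested. Such peaks are in the table only through the group where they are high, which favours a count of lowered peaks. Summed over peaks listed in both groups only, Siglech changed by -1.10 (limma, adjusted p = 0.0107).

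The promoter peak of Siglech (chr7:55768003-55768310), centred at -28 from the start, is the strongest peak of the gene under vehicle. It held 132.3, 124.8, 94.4 and 109.4 tags in the vehicle libraries and 59.9, 22.2, 34.8 and 65.7 in the IL-33 libraries. The groups did not overlap, and the means were 115.2 ± 16.8 and 45.6 ± 20.6 (log2 change -1.42, limma, adjusted p = 0.000488). A weaker promoter peak at -0.9 kb overlapped between groups and was not called, at 15.5 ± 6.66 and 12.4 ± 3.46 tags.

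Upstream, the strongest peak, an intergenic one at -23.4 kb, fell as well (chr7:55744656-55745008). Its values were 87.2, 97.6, 80.0 and 111.3 tags under vehicle and 39.5, 7.78, 25.7 and 25.2 under IL-33. All IL-33 libraries lay far below the lowest vehicle library, and the mean fell from 94.1 ± 13.6 to 24.57 ± 13.002 (log2 change -2.07, limma, adjusted p = 5.48e-08). The promoter peak and this distal peak were of similar strength under vehicle. Within a library, their log2 ratio (distal over promoter) averaged -0.29 under vehicle and -0.93 under IL-33, with overlap between the groups. The next strongest peak, at -2.7 kb, fell from 58.8 ± 9.86 tags to 23.2 ± 11.9 (limma, log2 change -1.43, adjusted p = 0.000448). These 3 peaks held 46.7% of the Siglech tags under vehicle and 33.9% under IL-33. A peak at -30.4 kb was lowered as well (34.3 ± 9.15 to 18.9 ± 10.8 tags, log2 change -0.98, limma, adjusted p = 0.0324), with overlap between groups. Without IL-33 library 2 it changed by -0.59 and was not called (limma, adjusted p = 0.173), and leaving out vehicle library 1, 2 or 4 or IL-33 library 3 also ended the call.

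The other upstream peaks were not called. The most distant one, at -61.3 kb, held 13.7, 16.8, 14.1 and 14.2 tags under vehicle and 45.1, 8.72, 23.6 and 42.3 under IL-33. IL-33 library 2 lay below the vehicle libraries there and the other IL-33 libraries above them, so the groups overlapped and the peak was not called (log2 change 0.74, limma, adjusted p = 0.143; 0.0379 after median-ratio scaling). Without IL-33 library 2 it was called raised (log2 change 1.22, limma, adjusted p = 0.000827). The log2 ratio of the -61.3 kb peak to the promoter peak averaged -2.87 under vehicle and -0.70 under IL-33, and the groups did not overlap. Other Siglech peaks also kept more of their tags than the promoter peak, such as that at -57.1 kb, whose ratio to it went from -2.72 to -1.38. The peak at -57.1 kb was at 16.5 ± 2.49 and 16.0 ± 5.75 tags, and that at -26.3 kb at 4.54 ± 0.94 and 6.01 ± 1.94. Beside the lowered peak at -23.4 kb, a weaker peak at -23.8 kb held 14.2 ± 1.29 tags under vehicle and 8.52 ± 4.47 under IL-33, without overlap but not called (adjusted p = 0.0993 in limma). A weak peak at -9.5 kb, below the level needed for the test, held 1.58 ± 0.38 and 4.53 ± 1.59 tags, and it was the only Siglech peak with every IL-33 library above every vehicle library. Another untested peak, at -3.0 kb, held 4.03 and 3.96 tags beside the lowered peak at -2.7 kb.

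Inside the gene, 14 weaker peaks ran from 0.7 to 10 kb past the start, and 8 of the 12 tested there were lowered. Their summed tags were 169.9, 171.5, 139.3 and 161.1 under vehicle and 74.3, 57.6, 64.7 and 81.9 under IL-33, so IL-33 library 2 lay close to the other IL-33 libraries here. The mean inside the gene was 43.4% of that under vehicle, compared with 55.9% for the 9 upstream peaks, 44.4% for the 2 promoter peaks and 31.5% for the 4 peaks at the gene end and beyond. Siglech peaks listed only under vehicle lay inside the gene and beyond its end, and those listed only under IL-33 lay upstream. These shares thus partly follow the lists, and the difference between them was not tested. The first intronic peaks, at 0.7, 1.7 and 3.6 kb, held 14.1, 19.9 and 5.82 tags under vehicle and 9.40, 10.3 and 4.66 under IL-33 and were not called. Of the peaks from 4.2 to 6.7 kb, those at 4.5 and 5.8 kb were lowered (log2 changes -1.15 and -1.04). Leaving out IL-33 library 3 ended both calls, and vehicle library 1, 2 or 3 that at 5.8 kb, with adjusted p of up to 0.0724 and 0.115 in limma. The peak at 6.7 kb was not called, although its groups did not overlap (13.1 ± 1.10 and 8.13 ± 2.60 tags), and the peaks at 4.2 and 5.4 kb were too weak to test (5.18 and 5.51 tags under vehicle, 2.16 and 2.12 under IL-33).

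From 7.2 kb on, 9 neighbouring peaks in a row were lowered, across the last intron, the 3′ untranslated region and the transcript end, out to 12 kb. The deepest of these fell at the annotated transcript end (chr7:55778892-55779228, 10.9 kb past the start), with 11.8, 9.91, 11.7 and 14.5 tags under vehicle and 0.89, 1.65, 2.17 and 3.80 under IL-33. No library overlapped between the groups, and the log2 change was -2.06 (limma, adjusted p = 5.88e-08). The 3′ untranslated peak at 9.5 kb fell from 10.4 ± 2.96 to 1.88 ± 0.59 tags (limma, log2 change -1.91, adjusted p = 6.59e-07), and the intronic peak at 8.7 kb from 9.18 ± 1.25 to 1.91 ± 0.80 (log2 change -1.78, limma, adjusted p = 4.98e-06). The intronic peaks at 7.2, 8.0 and 9.2 kb changed by -1.63, -0.98 and -1.69, the second 3′ untranslated peak at 10 kb by -1.29, and the peaks at 11.4 and 12 kb by -1.29 and -0.997. Of this run, the peaks at 7.2, 8.7, 9.2, 9.5, 10.9 and 12 kb were on the authors' vehicle list only. Their IL-33 means lay below 4.3 tags, the lowest mean tested, so they passed the filter only through vehicle. The calls at 8.0 and 12 kb were not stable to leaving out 1 library. At 12 kb it ended without IL-33 library 2 (log2 change -0.76, limma, adjusted p = 0.0601), IL-33 library 3 or vehicle library 3. At 8.0 kb it ended without any 1 of the vehicle libraries or IL-33 library 3 (limma, adjusted p of up to 0.118). The last peak, at 12.4 kb, was too weak to test (5.63 and 1.81 tags). On the authors' peak lists, 12 of the 29 Siglech peaks (41.4%) were under vehicle only, next to 8.86% of all peaks in the table. All of them lay between 3.6 and 12.4 kb, and most peaks of the run of 9 are among them. The same libraries lie behind those lists, so they restate the difference in tags and add no separate evidence.

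**Figure D3:**
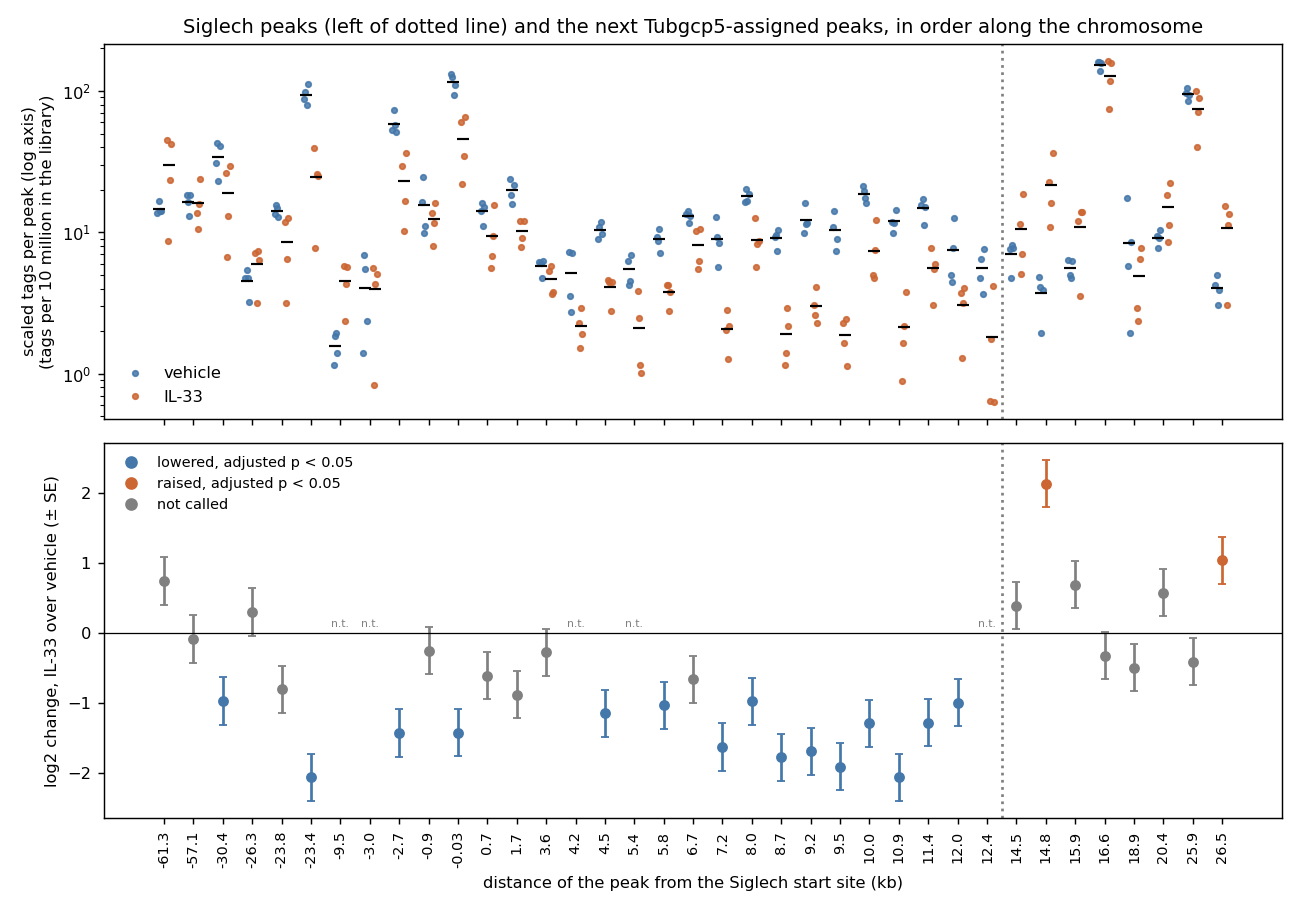
Upper panel: scaled tags (log axis) at each of the 29 Siglech peaks and, right of the dotted line, at the next peaks assigned to Tubgcp5, in order along the chromosome, one point per library (blue vehicle, orange IL-33) and a bar at each mean. Lower panel: log2 change with its SE, "n.t." marking peaks too weak to test; 15 Siglech peaks are lowered, including 9 in a row from 7.2 to 12 kb, and the Tubgcp5 peak at 14.8 kb is raised. Most of the lowered peaks were on the authors' vehicle list only, and the 14.8 kb peak was on the IL-33 list only.

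The peaks behind the gene were read as well. Within 200 kb, all peaks assigned to other genes lay on the downstream side, 45 in number, assigned to Tubgcp5, Cyfip1, Nipa2 and A230056P14Rik. Of the 42 tested, 6 were raised and 1 lowered, where 8.53% and 4.99% of all peaks were, with a median log2 change of 0.08. The nearest, at 14.5 kb from the Siglech start, held 7.09 ± 1.56 and 10.5 ± 6.02 tags and was not called. The next, at 14.8 kb (chr7:55782832-55783102), held 4.86, 4.10, 1.94 and 3.91 tags under vehicle and 22.6, 10.8, 16.1 and 36.5 under IL-33. All IL-33 libraries lay above all vehicle libraries at this intergenic site, and the log2 change was 2.14 (limma, adjusted p = 1.76e-08). The site was on the authors' IL-33 list only, and its vehicle mean of 3.70 tags lay below 4.3, the lowest mean tested. It thus passed the filter only through IL-33. A strong peak at 16.6 kb was not called, at 153.9 ± 10.97 and 128.0 ± 41.0 tags. These flanking peaks were chosen for display after their values had been seen.

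Plasmacytoid dendritic cells also express Siglech, and so their marker genes were read in the same libraries. Peaks were present at 4 of the 5 genes of that list (Ly6d, Bst2, Ccr9 and Cox6a2), and no peak was assigned to Klk1. The summed level was 201.0 to 299.5 tags under vehicle and 185.3 to 383.7 under IL-33, so the groups overlapped. Of the 11 tested peaks of that list limma raised 3 and lowered 0 (8.53% and 4.99% of all peaks). Limma called none of its 3 tested genes in summed tags, and edgeR raised 2 and lowered 0 (15% and 11.5% of all genes). The microglia markers overlapped between groups (3471 to 5017 and 2360 to 4773 tags), and none of the 7 passed the test in summed tags by limma, with 1 lowered at an unadjusted p under 0.05. EdgeR raised 2 and lowered 3 of them, where it raised 15% and lowered 11.5% of all genes. Their part in the Siglech result was not tested.

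Over the 8 libraries, the summed tags of Ackr3, an atypical chemokine receptor gene, followed those of Siglech most closely among 7364 genes of at least median level (Pearson r = 0.999 of log2 values). Cpn2 (0.996), Chst8 (0.996) and Grik4 (0.995) were also among the 5 closest. Ackr3 itself went from 184.1 to 90.1 tags. With median-ratio scaling, Ackr3, Grik4 and Chst8 stayed among the 5 genes most like Siglech, joined by Cmtm8 and Cebpg. These coefficients describe 8 libraries of 2 groups, which share depth and treatment, and they fall mainly on the step between the groups. The same measure was 0.77 for Siglecf, 0.55 for Cd22, 0.39 for Cd33, 0.16 for Siglec1 and 0.14 for Siglece. After median-ratio scaling it was 0.76 for Siglecf, -0.17 for Cd22, -0.89 for Cd33, -0.89 for Siglec1 and -0.91 for Siglece.

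The other 5 members behaved differently from Siglech, with single sites that rose and no sum that passed the test. Of their 39 tested peaks 7 were raised (17.9%) and 1 was lowered (2.56%), next to 8.53% and 4.99% of all peaks. The raised peaks of Siglece at 0.6 kb and of Siglecf at 3.9 and 20.2 kb were on the authors' IL-33 list only. Their vehicle means were 2.76, 2.62 and 0.54 tags, and the lowest mean tested over all libraries was 4.3. These peaks thus passed the filter only through IL-33, which favours a count of raised peaks. In 7 of the 39 every IL-33 library lay above every vehicle library, as in 8.06% of all peaks, and none of the 5 sums was free of overlap (2.08% of all genes were, with IL-33 higher). None of the 5 genes was raised in summed tags by limma, 0 also at an unadjusted p under 0.05, where 1.46% of all genes were. EdgeR and DESeq2 each raised 3 of them, Siglece, Siglec1 and Cd33, which also passed after median-ratio scaling. These settings raised more of all genes as well, 15% with edgeR, 16.7% with DESeq2 and 11.8% after median-ratio scaling.

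Siglece, the inhibitory receptor of myeloid cells, held 138.9, 158.8, 113.5 and 143.1 tags in total under vehicle and 220.4, 102.9, 160.8 and 272.6 under IL-33. IL-33 library 2 lay below all vehicle libraries and the other 3 above, and the log2 change was 0.36 (limma, adjusted p = 0.850). It was 0.46 when libraries were scaled by median ratios (limma, adjusted p = 0.00154). Leaving out IL-33 library 2 gave 0.61 (limma, adjusted p = 0.0233). A peak 4.0 kb upstream (chr7:43664014-43664351) was raised. It is intergenic in the authors' annotation but inside the longer Siglece span of RefSeq, with 18.4, 23.8, 10.9 and 23.2 tags under vehicle and 50.6, 22.5, 42.9 and 75.0 under IL-33. Only IL-33 library 2 fell within the vehicle range there, and the log2 change was 1.21 (limma, adjusted p = 0.00452; 0.0679 without vehicle library 3). A weak intronic peak at 0.6 kb rose from 2.76 ± 1.40 to 7.32 ± 1.91 tags without overlap (log2 change 1.16, limma, adjusted p = 0.00704; 0.133 without vehicle library 4 and 0.0528 without IL-33 library 3). The promoter peak at -54 was not called, at 51.4 ± 4.996 and 51.0 ± 20.4 tags. Of the remaining peaks of Siglece, 3 were tested and not called, with log2 changes of 0.09 to 0.62, and 1 was too weak to test.

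Siglec1 encodes sialoadhesin, and its promoter peak was the site that opened (chr2:131086660-131086950, at -40 from the start). It held 9.08, 9.64, 4.10 and 7.95 tags under vehicle and 22.4, 12.8, 21.1 and 28.9 under IL-33. Every IL-33 library lay above every vehicle library, and the log2 change was 1.35 (limma, adjusted p = 0.00115). The neighbouring promoter peak at -562 had the opposite sign without passing the test, at 14.6 ± 4.98 and 9.06 ± 1.63 tags (limma, log2 change -0.57, adjusted p = 0.312). The strongest upstream peaks were at -3.1 kb, with 53.8 ± 12.4 and 51.7 ± 17.97 tags, and at -4.3 kb, with 52.3 ± 9.97 and 85.2 ± 31.7 tags. The second of these was not called as deposited but was after median-ratio scaling (limma, adjusted p = 0.00434) and without IL-33 library 2 (log2 change 0.89, adjusted p = 0.0145). In total, the gene held 157.6 ± 31.3 and 200.9 ± 65.5 tags (limma, log2 change 0.30, adjusted p = 0.875; 0.40 and 0.00653 after median-ratio scaling). Siglec1 is known from border macrophages, whose 6 marker genes all had peaks. Their summed level was 368.8 to 563.4 tags under vehicle and 209.6 to 610.5 under IL-33, and their part in the result was not tested.

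Siglecf had the site with the largest rise of all members, an intergenic peak 20.2 kb past its start (chr7:43371392-43371625). Under vehicle it held 0.77, 0.53, 0 and 0.84 tags, and under IL-33 11.9, 5.07, 8.66 and 14.6. Vehicle library 3 held no read there, and the other vehicle libraries were above the level of 3 reads (0.342 to 0.418 tags per library) but at most at 0.84 tags. In these libraries 1 read counts as 0.114 to 0.1395 tags. Each IL-33 library was well above that level (log2 change 2.68, limma, adjusted p = 3.86e-13). With so few reads under vehicle its size varied with the setting, from 1.71 with a 3 times larger pseudocount to 4.34 in DESeq2. An intronic peak at 3.9 kb rose from 2.62 ± 1.45 to 7.23 ± 1.68 tags (limma, log2 change 1.23, adjusted p = 0.00393; 0.117 without vehicle library 1). In contrast, an intergenic peak 4.9 kb upstream (chr7:43346231-43346680) was lowered, the only such peak outside Siglech. It held 17.01, 21.5, 19.4 and 22.9 tags under vehicle and 12.5, 3.54, 7.52 and 11.9 under IL-33, without overlap (log2 change -1.20, limma, adjusted p = 0.00492). The strongest peak of the gene, in an intron at 2.0 kb, was at 135.7 ± 13.7 and 100.04 ± 42.6 tags and was not called (adjusted p = 0.343 in limma; 0.0377 after median-ratio scaling). The promoter peak at -7 held 24.6 ± 7.85 and 27.9 ± 10.8 tags. The sum was 291.1 ± 38.2 and 259.5 ± 96.5 tags (limma, log2 change -0.24, adjusted p = 0.875). Eosinophil markers had peaks at 4 of 5 genes, none at Epx, and summed to 243.2 to 319.5 tags under vehicle and 154.3 to 401.0 under IL-33. Their part in the result was not tested.

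Cd33 opened at a single strong intronic site, 2.6 kb past the start (chr7:43530401-43530794). The values there were 28.6, 26.4, 18.1 and 28.3 tags under vehicle and 87.3, 32.9, 44.0 and 76.6 under IL-33. The groups did not overlap, and the log2 change was 1.12 (limma, adjusted p = 0.00980; 0.0692 without vehicle library 3 and 0.0821 without IL-33 library 1). An intergenic peak 13 kb upstream rose from 7.10 ± 1.92 to 18.4 ± 5.81 tags, again without overlap (log2 change 1.22, limma, adjusted p = 0.00404). The promoter peak at 32 bases past the start had the opposite sign, at 63.3 ± 7.44 and 45.6 ± 17.9 tags, and was not called as deposited (log2 change -0.54, limma, adjusted p = 0.350; -0.44 and 0.0229 after median-ratio scaling). The strong pair of upstream peaks at -11.3 and -11.6 kb was not called, at 65.3 and 65.4 tags under vehicle and 67.1 and 68.2 under IL-33. In sum Cd33 held 281.3 ± 35.01 and 322.6 ± 111.3 tags (limma, log2 change 0.13, adjusted p = 0.898; 0.23 and 0.0214 after median-ratio scaling).

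Cd22 had the fewest peaks, 3, and held 40.5 ± 6.89 tags under vehicle against 41.6 ± 15.2 under IL-33. Limma called 0 of its peaks, 0 also at an unadjusted p under 0.05, while edgeR and DESeq2 each raised 1 (16.9% and 17.5% of all peaks were). The peak nearest the start, in an intron at 0.9 kb, held 11.5 ± 1.72 and 17.3 ± 7.60 tags (limma, log2 change 0.43, adjusted p = 0.505; 0.0460 after median-ratio scaling). B cell markers had peaks at 3 of 5 genes, none at Cd79a or Pax5. They summed to 92.5 to 134.1 tags under vehicle and 61.1 to 155.1 under IL-33, and their part in the result was not tested.

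**Figure D4:**
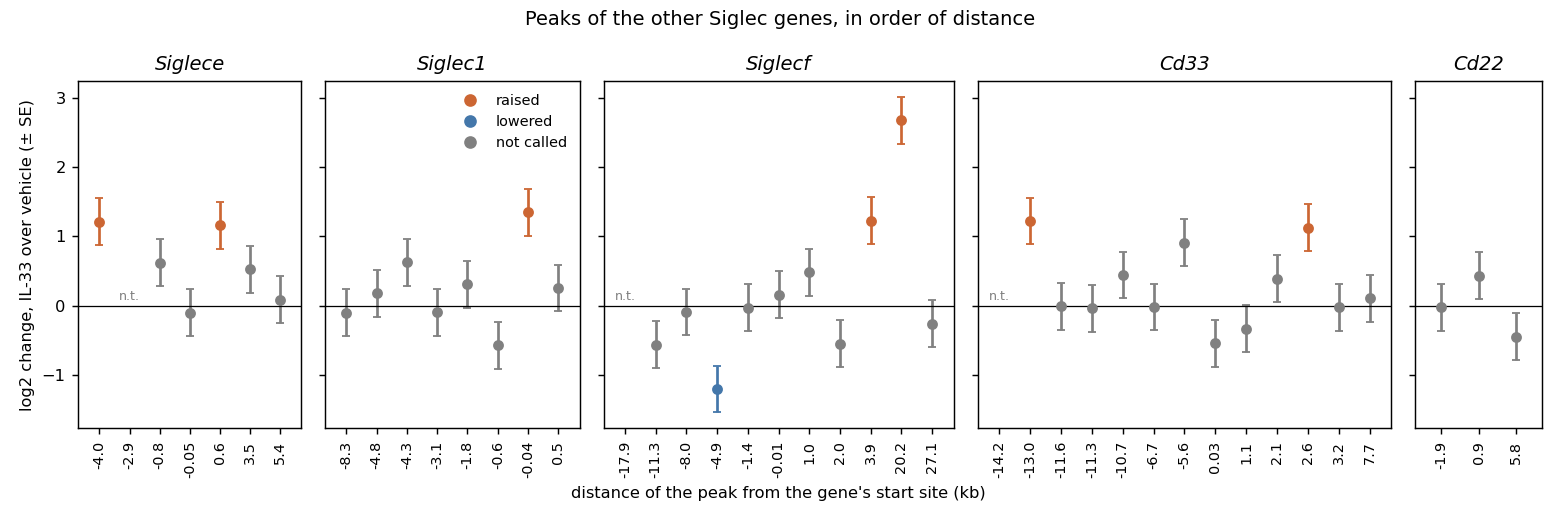
Log2 change with its SE at every peak of Siglece, Siglec1, Siglecf, Cd33 and Cd22, in order of the distance from the start site of the gene in kb (negative before the start in the direction of transcription). Orange marks the 7 raised peaks, blue the 1 lowered peak of Siglecf, grey peaks that were not called and "n.t." those too weak to test. The peaks not called have log2 changes from -0.57 (Siglec1 at -0.6 kb) to 0.91 (Cd33 at -5.6 kb).

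The genes that make, attach and read sialic acid, or signal below Siglecs, were followed as 5 lists of 42 genes, 35 of them tested in summed tags. Limma raised 0 and lowered 1, where 1.46% and 1.23% of all genes were, with 2 raised and 4 lowered at an unadjusted p under 0.05. EdgeR raised 10 and lowered 5 (15% and 11.5% of all genes), and DESeq2 raised 11 and lowered 6 (16.7% and 13.2%). Of their 337 tested peaks 38 were raised (11.3%) and 20 lowered (5.93%), close to the 8.53% and 4.99% of all peaks. The median log2 change over the 35 genes was -0.13, next to -0.17 over all genes.

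The lowered gene was St6galnac5, a sialyltransferase that adds sialic acid to gangliosides. Its sum was 228.2, 218.8, 170.8 and 216.5 tags under vehicle and 117.1, 38.0, 64.6 and 150.6 under IL-33. No IL-33 library reached the vehicle range, and the mean fell from 208.6 ± 25.7 to 92.6 ± 50.8 (log2 change -1.29, limma, adjusted p = 0.000501). Of its 6 tested peaks 5 were lowered, all intronic and 49.9 to 87.1 kb past the start, the strongest from 76.4 ± 5.88 to 30.9 ± 13.7 tags. Over the sialyltransferase list, St6galnac5 included, 17 of 175 tested peaks were raised and 14 lowered, near the shares of all peaks. St3gal1, which sialylates O-linked glycans, had 5 raised peaks of 19, the strongest from 10.4 ± 2.31 to 78.5 ± 32.4 tags in an intron 60.0 kb past its start. Apart from the strongest, these raised peaks were on the authors' IL-33 list only, which favours a count of raised peaks. St8sia4, a polysialyltransferase gene, had 3 lowered peaks.

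Among the signalling partners, 19 of 102 tested peaks were raised (18.6%) and 3 lowered (2.94%), where 8.53% and 4.99% of all peaks were. Limma called no gene of the list in summed tags, with 1 raised at an unadjusted p under 0.05. EdgeR raised 5 and lowered 1 of the 7 genes, where it raised 15% and lowered 11.5% of all genes. Syk, the kinase recruited by DAP12, had 4 raised peaks of 18. Its first intronic one held 9.85, 12.2, 6.61 and 10.5 tags under vehicle and 121.4, 63.9, 108.9 and 144.7 under IL-33, a clear separation of the groups (log2 change 3.31, limma, adjusted p = 7.02e-20). Lyn, a Src family kinase that phosphorylates inhibitory motifs, had 6 raised peaks of 12, and Ptpn6, the gene of SHP-1, had 5 of 10. Ptpn11, the gene of SHP-2, and Hcst, the gene of the adaptor DAP10, had 2 each. The raised peaks of Ptpn11, most of Ptpn6 and some of Lyn and Syk were on the authors' IL-33 list only. Some had vehicle means below 4.3 tags, the lowest mean tested, such as 1.93 at Ptpn11 and 2.31 at Lyn. Such peaks passed the filter only through IL-33, which favours a count of raised peaks. The 3 lowered peaks were at Inpp5d, the gene of the phosphatase SHIP1. Tyrobp, the gene of DAP12 itself, with which Siglec-H pairs, held 280.6 ± 37.8 and 240.8 ± 72.8 tags and was not called (log2 change -0.26, limma, adjusted p = 0.875). Of the other Siglec genes, only Siglecg had called peaks, 1 raised (1.85 to 7.20 tags) and 1 lowered (8.91 to 4.43 tags), both at its promoter and both with overlapping groups. The raised one was on the authors' IL-33 list only and the lowered one on the vehicle list only, each the group where it is higher. The peaks of these lists named beyond St6galnac5 were chosen after their values had been seen.

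**Figure D5:**
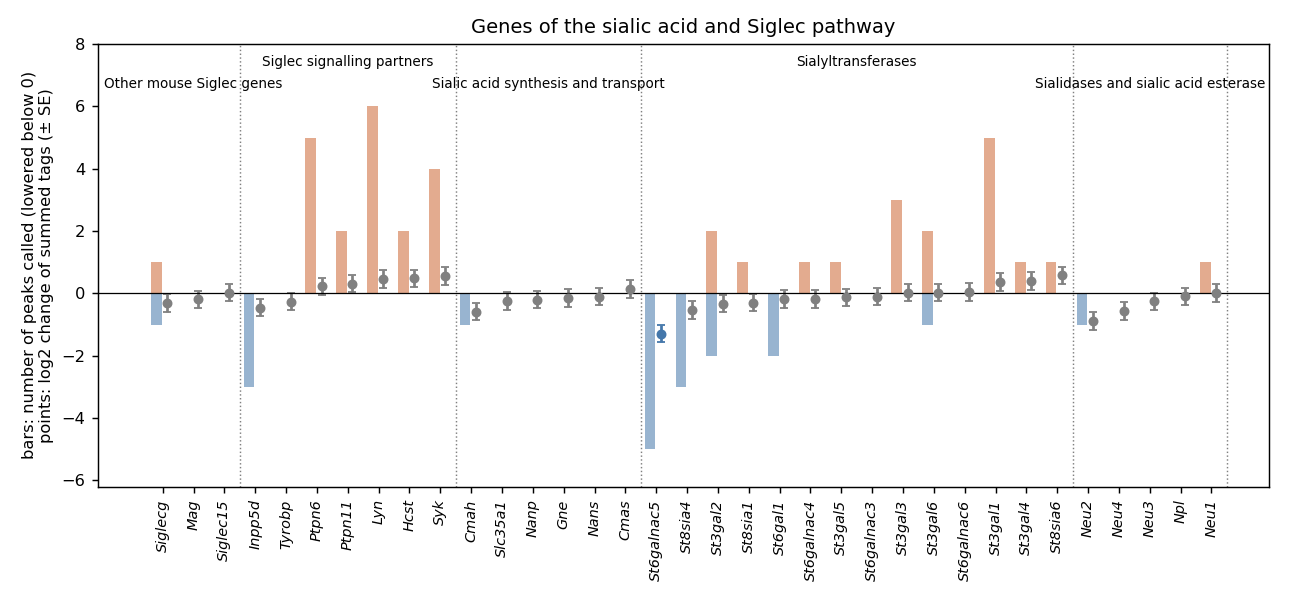
For each tested gene of the 5 lists, the bar gives its number of called peaks (orange upward raised, blue downward lowered) and the point the log2 change of its summed tags with SE. St6galnac5 is the only gene called in summed tags (-1.29, blue point), and Lyn, with 6, has the most raised peaks.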

How the data were processed

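Members and gene lists were chosen with earlier results of these data known. Per the file headers, the authors counted tags over reproducible (IDR) peaks with HOMER annotatePeaks on mm10, at most 3 tags per position, and deposited them as a signal scaled to 10000000 tags per library. Bowtie2 and DESeq2 also appear, with no version or role, in the submitters' processing notes. The authors' deposited score of each merged peak (540 or more) entered no test. Read trimming, duplicate removal and transposase shift are not given in the sources used here. Every value was a whole multiple of 1 read within 0.006 tags, in 100% of values, so reads could be recovered, and edgeR with TMM on them raised 15969 and lowered 11521 peaks. The 3-read floor covers counting error only.

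Columns name the group and not the mouse, so 8 columns served as 4 replicates per group, and 0 other sample columns were set aside. The lowest 10% of peaks and genes by mean level over all libraries (10501 peaks, 1821 genes) were not tested, 8 of the 71 member peaks among them. The test was limma 3.58.1 in R 4.3.3 on log2(tags + 1.155), or log2(sum + 5) per gene, two-sided, Benjamini-Hochberg adjusted over all features, threshold 0.05. These log2 changes understate the change of weak peaks, and every peak shared an SE of 0.34 (genes 0.28), so the smallest p-values are not literal. Within-library ratios were tested by exact permutation. Assignment of a peak to a gene goes by the nearest start site and does not show regulation. Named for each member were the peak nearest its start and all called peaks (the 4 smallest p where more passed); all Siglech peaks were accounted for. A gene that the rule for likeness to Siglech names, and a marker gene, are not reported here. Alternatives were other scalings, pseudocounts and filters, limma with trend, edgeR 4.0.16 and DESeq2 1.42.0 on recovered reads, other peak choices and leaving out each library. The fits were tested on simulated data. Python 3.11.15 with Biopython 1.88 handled sequences, and no genome of the build was used here.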

Additional observations from a re-analysis of the deposited data

How the results depend on the processing

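The fall of Siglech in summed tags kept its direction in all alternatives run; leaving out each library in turn gave log2 changes of -1.28 to -0.86. The 15 lowered Siglech peaks became 10 to 18 without 1 library. Siglech relative to the other genes kept its direction throughout (-1.51 to -1.44 for Siglece, -1.48 to -1.34 for Siglec1, -0.90 to -0.86 for Siglecf, -1.29 to -1.22 for Cd33 and -1.16 to -1.03 for Cd22 without 1 library). No paired analysis was possible because mice carry numbers of their own and the columns do not name the mouse.

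Raised member peaks (7) were 11 with median-ratio scaling and with equal sums in peaks, 12 with edgeR (TMM) and with DESeq2, 4 with the lowest 25% left out, and 5 to 12 without 1 library (12 without IL-33 library 2); lowered ones (16) were 11 to 20. Raised member genes (0) were 3 under those scalings, quantile normalization, edgeR (TMM) and DESeq2, and 0 to 1 without 1 library; lowered ones (1) were 0 to 1. For the 5 lists, raised peaks (38) were 69, 70, 73 and 75 with median-ratio scaling, equal sums, edgeR (TMM) and DESeq2, and 26 to 64 without 1 library (64 without IL-33 library 2). Lowered ones (20) were 39, 38, 48 and 49, 40 with quantile normalization, 12 with edgeR on total tags, and 8 to 28 (8 without IL-33 library 3). Raised genes (0) were 8, 9, 10 and 11, 9 with quantile normalization, 2 without promoter peaks, and 0 to 6. Lowered genes (1) were 6, 6, 5 and 6, 8 with quantile normalization, and 1 to 2; they were 2 with a smaller pseudocount, no filter, limma with trend, or no promoter peaks. The causes were not tested.

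Signs turned in these values, none of them called as deposited. Cd22 in sum (-0.03) was 0.058, 0.071, 0.13, 0.040 and 0.13 with median-ratio scaling, equal sums, edgeR (TMM), edgeR on total tags and DESeq2, and -0.16 to 0.25 without 1 library. Without 1 library, Siglecf in sum was -0.40 to 0.021 and Cd33 -0.015 to 0.38. The Siglece promoter peak (-0.10) was 0.013, 0.055, 0.033 and 0.031 with equal sums, quantile normalization, edgeR (TMM) and DESeq2, and -0.29 to 0.17 without 1 library; the Siglecf promoter peak (0.16) was -0.092 to 0.37. The weakest peaks, near 3 reads under vehicle, are limited by depth.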
